A study of Mus musculus with 12 samples.

Results

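Genes of the early lymphoid and B-cell programme were followed in GMPs, the granulocyte-monocyte precursors of the bone marrow, which give rise to neutrophils and monocytes. The listed genes were Ebf1, Blnk, Cd79a, Cd79b, Dntt, Rag1, Igll1, Vpreb1 and Il7r, and all probe sets annotated to one of these genes alone were taken. Of the 9 genes, 8 had a value, from 22 probe sets, among 14199 genes from 98975 probe sets in all. Cd79a had no such probe set in the table and is not analysed here. GMPs were sorted by fluorescence from bone marrow of C57BL/6 mice, and their RNA was amplified and hybridised to 12 Affymetrix Mouse Gene 1.0 ST arrays. There were 4 genotypes with 3 arrays each: WT (wild-type mice), KO (Gfi1 knock-out mice), wtKI (mice carrying the ordinary human GFI1 as a knock-in) and SNP (mice carrying a human GFI1 variant as a knock-in). GFI1 represses transcription and supports granulocyte formation, and the study looked for targets of the variant that might matter for acute myeloid leukaemia. The labels give no age, no construct of the alleles and no sort gate. They do not say whether the arrays of a group came from separate mice, so p-values measure only the spread between these arrays, which may be technical.

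B cells arise from lymphoid progenitors that signal through the interleukin 7 receptor and switch on EBF1, the transcription factor that commits cells to the B lineage. RAG1 cuts the immunoglobulin gene segments, and the polymerase encoded by Dntt (terminal transferase, TdT) adds bases at the joints. The new heavy chain is then paired with the surrogate light chain, made of the Vpreb1 and Igll1 proteins, and signals through the CD79A and CD79B chains and the adaptor BLNK. Dntt and Il7r are already used in lymphoid-primed progenitors before B-lineage commitment, while GMPs are placed on the myeloid side of that branch.

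2 arrays stood apart. Across probe sets the median correlation with the other arrays was 0.633 for SNP 1 and 0.70 for KO 1, against 0.836 to 0.886 for the other 10. On both arrays markers of other cell types were raised. The mean log2 signal of 16 late neutrophil genes was 10.75 on SNP 1, against 5.79 to 7.38 on the other 11 arrays, and that of 11 erythroid genes was 9.55 on SNP 1, 7.30 on KO 1 and 5.87 to 6.49 on the other 10. The mean of 11 GMP genes, among them Mpo, Ctsg and Cd34, was 8.54 on SNP 1, 9.32 on KO 1 and 9.41 to 9.77 on the other 10. None of these genes fell under the 5th percentile of an array. That also held for the 6 measured macrophage genes, so it does not check the labelled cell type. The Y-linked gene Eif2s3y was at 1.71 to 2.39 on WT 3, wtKI 2 and wtKI 3 and at 7.74 to 8.59 on the other 9 arrays, so the sexes are not balanced over the genotypes. Gfi1 itself was at 5.71 to 6.26 in WT and 6.33 to 6.78 in KO, so its gene value does not check the KO label. Most results on the listed lymphoid genes are given below with and without SNP 1, and some single genes of other lists with it only. In bulk RNA, more cells of a type in the sort and more RNA per cell cannot be told apart.

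The genes form neighbouring pairs. In the RefSeq gene order Igll1 and Vpreb1 lie side by side on chromosome 16 with 0 genes between them, and Blnk and Dntt lie on chromosome 19 with 0 protein-coding genes between them. Their promoters are shown because the values of each pair were not alike over the arrays, though the fit reported below passed none of these genes between genotypes. Each window runs from 250 bases before to 50 bases after the start site (RefSeq, GRCm38.p6). Capitals mark CAGGTG or its reverse complement CACCTG, the E-box read by the E2A proteins, and CCCNNGGG, the core of the EBF1 motif, whose reverse complement is the same.
Igll1, chr16:16863936-16864235, minus strand: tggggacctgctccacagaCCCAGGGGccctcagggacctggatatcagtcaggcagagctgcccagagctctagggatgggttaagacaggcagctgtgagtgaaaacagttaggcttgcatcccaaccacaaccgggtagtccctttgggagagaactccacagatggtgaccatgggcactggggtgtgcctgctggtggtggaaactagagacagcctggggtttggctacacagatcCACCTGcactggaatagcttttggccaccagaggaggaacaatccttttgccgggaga
Vpreb1, chr16:16869206-16869505, minus strand: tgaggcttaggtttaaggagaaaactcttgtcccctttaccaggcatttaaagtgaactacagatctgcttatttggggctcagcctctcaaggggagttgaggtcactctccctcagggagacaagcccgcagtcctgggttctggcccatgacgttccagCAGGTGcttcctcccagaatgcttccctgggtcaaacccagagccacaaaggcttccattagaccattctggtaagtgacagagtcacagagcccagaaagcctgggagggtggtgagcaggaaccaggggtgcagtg
Blnk, chr19:40994172-40994471, minus strand: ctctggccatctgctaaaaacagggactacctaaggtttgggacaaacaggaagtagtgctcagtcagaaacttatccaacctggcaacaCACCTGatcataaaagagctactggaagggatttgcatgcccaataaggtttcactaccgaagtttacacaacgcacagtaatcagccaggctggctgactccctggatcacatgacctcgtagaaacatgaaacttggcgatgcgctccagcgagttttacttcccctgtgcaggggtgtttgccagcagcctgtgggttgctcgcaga
Dntt, chr19:41029025-41029324, plus strand: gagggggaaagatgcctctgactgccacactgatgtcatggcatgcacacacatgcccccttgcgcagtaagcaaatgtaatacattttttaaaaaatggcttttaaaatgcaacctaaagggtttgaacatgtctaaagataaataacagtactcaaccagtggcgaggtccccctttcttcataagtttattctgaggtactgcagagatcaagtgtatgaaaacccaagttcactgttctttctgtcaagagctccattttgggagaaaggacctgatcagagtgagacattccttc
Promoters were held for 8 of the 9 genes, with a pair of start sites for Ebf1. CAGGTG was found in the promoters of 5 of these 8 genes (Igll1, Vpreb1, Blnk, Rag1 and Cd79a), while 20.2% of all 32841 promoters of this length held it. CCCNNGGG was found in 1, that of Igll1, against 13.7% of all promoters. The match in Vpreb1 began at -88 from the start site, that in Blnk at -160 and that in Igll1 at -8. AATC, the core read by GFI1, was found on either strand (AATC or GATT) in 6 of the 8 genes, against 73.1% of all promoters, and the windows of Dntt and Vpreb1 held none. A match of letters is a description and not a binding site.

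Ebf1, Rag1 and Dntt stand for commitment and gene rearrangement. Ebf1, measured by 1 probe set, was at 1.92, 1.12 and 4.03 (log2 signal) in WT, 7.01, 3.49 and 2.64 in KO, 3.76, 2.64 and 3.40 in wtKI and 9.38, 4.66 and 4.63 in SNP. Only KO 1 and SNP 1 reached the 5th percentile of all probe set signals on the same array, which is used here as the level of background. This level was 4.39 on SNP 1, 4.40 on KO 1 and 5.30 to 5.65 on the other 10 arrays, so it is easier to reach on SNP 1 and KO 1. The sizes of Ebf1 differences among the other 10 arrays are not exact. Over all arrays Ebf1 was 3.87 ± 1.37 above WT in SNP (log2 difference ± SE, limma adjusted p = 0.27), and the SNP arrays did not overlap WT or wtKI. Without SNP 1 the difference was 2.29 ± 1.14 (adjusted p = 0.501), with SNP 2 and SNP 3 still under the 5th percentile. Rag1, also with 1 probe set, was at 8.92 on SNP 1 and between 3.42 and 5.37 on the other 11 arrays. Among these only KO 1 reached its 5th percentile, at 4.97, although WT 1 (5.06) and SNP 2 (5.37) were higher. Its SNP minus WT difference was 1.96 ± 0.88 (adjusted p = 0.31), and 0.67 ± 0.48 without SNP 1 (adjusted p = 0.621).

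The gene values of Dntt, Vpreb1 and Cd79b were above the 5th percentile on all 12 arrays, though each had probe sets under it on some arrays. The T-cell gene Cd3e was also above it on all 12 arrays, so passing this level does not by itself show expression in GMPs. Dntt was at 7.06, 7.35 and 6.95 in WT, 6.41, 5.88 and 5.72 in KO, 7.11, 9.37 and 8.56 in wtKI and 10.09, 6.12 and 7.38 in SNP. All KO arrays lay below all WT and wtKI arrays, the highest levels outside SNP 1 were on wtKI 2 and wtKI 3, and SNP 2 lay within the KO range. The group means in order were 6.00 ± 0.36 in KO, 7.12 ± 0.20 in WT, 7.86 ± 2.03 in SNP and 8.35 ± 1.14 in wtKI (SD, n = 3), and SNP without SNP 1 was at 6.75 ± 0.89 (SD, n = 2). In this order KO and WT did not overlap, and SNP overlapped both of its neighbours. KO was 1.12 ± 0.83 below WT (limma adjusted p = 1) and 2.35 ± 0.83 below wtKI (adjusted p = 0.931). Without SNP 1 the same differences had smaller errors, -1.12 ± 0.51 (adjusted p = 0.712) and -2.35 ± 0.51 (unadjusted p = 0.000857, adjusted p = 0.243). With array weights the second passed, at -1.94 (adjusted p = 0.0337). In that setting 745 of the 14199 genes passed in KO minus wtKI, where the fit reported passed 0. The adjusted p of Dntt in KO minus wtKI ran from 0.0337 to 1 over all alternatives. wtKI was 1.23 ± 0.51 above WT without SNP 1 (adjusted p = 0.998). SNP minus wtKI was -0.49 ± 0.83 with SNP 1 and -1.60 ± 0.57 without it (adjusted p = 0.825 and 0.887). SNP minus WT turned from 0.74 ± 0.83 to -0.37 ± 0.57 (adjusted p = 0.636 and 0.819).

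The 3 probe sets of Dntt had the same order of KO, WT and wtKI means. Their KO means were 6.27, 5.42 and 5.55, their WT means 7.50, 7.02 and 6.65 and their wtKI means 8.41, 7.99 and 8.18. In KO, probe set 10463136 was under the 5th percentile on KO 3 and probe set 10463137 on KO 2 and KO 3, so the sizes of the KO differences are not exact for these. That a KO group lies below every WT and wtKI array held for 1.68% of all genes, a rule chosen after the values of Dntt were seen. wtKI 2 and wtKI 3 were the wtKI arrays low in Y-linked genes, and WT 3, which shared that feature, had Dntt at 6.95; the part of sex in the wtKI level was not tested.

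**Figure D1:**
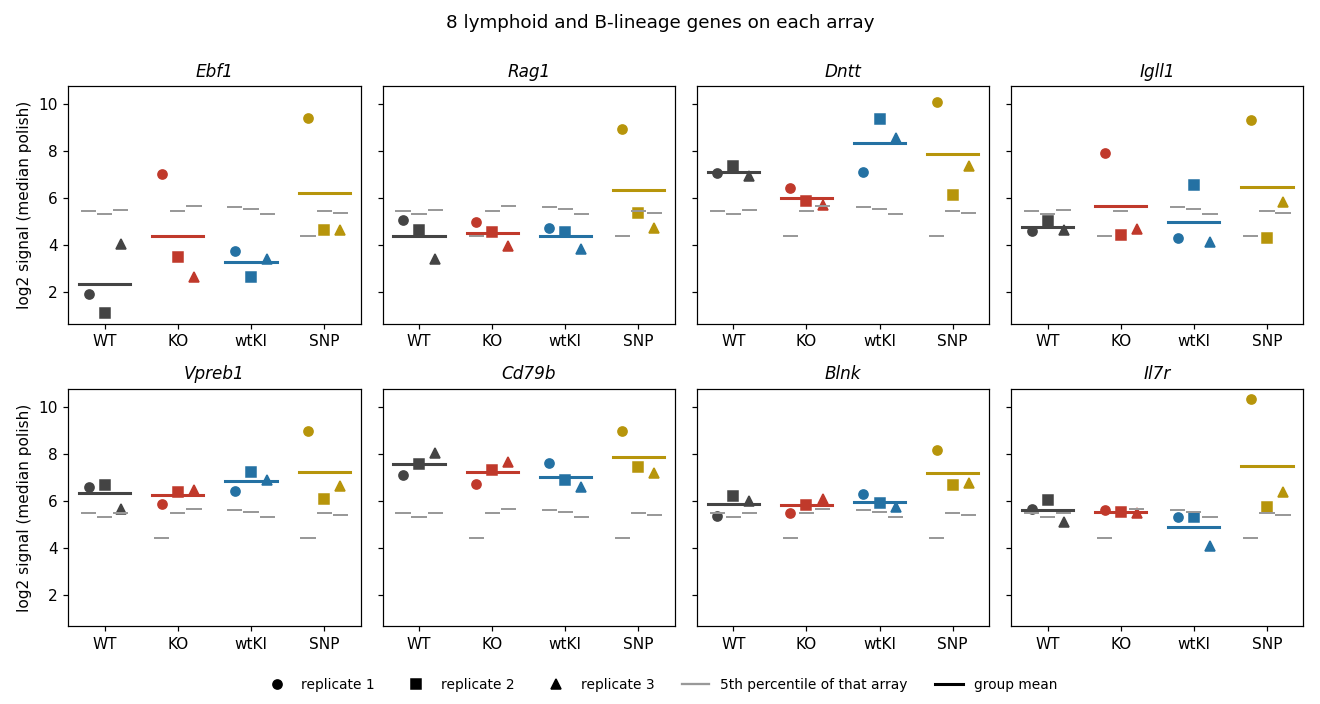
Log2 signal (y axis, median polish over probe sets) of the 8 measured lymphoid genes on each array, by genotype (x axis, 3 arrays each). Symbols are replicates, coloured bars group means and grey dashes the 5th percentile of that array; SNP 1 is the highest array for all 8 genes, and all KO arrays lie below all WT arrays for Dntt only.

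Igll1 and Vpreb1 encode the parts of the surrogate light chain. Igll1, with 1 probe set, was at 4.58, 5.02 and 4.66 in WT, 7.93, 4.43 and 4.67 in KO, 4.30, 6.53 and 4.13 in wtKI and 9.32, 4.30 and 5.83 in SNP. It passed the 5th percentile on KO 1, wtKI 2, SNP 1 and SNP 3 only. No comparison came near the threshold: SNP minus WT was 1.73 ± 1.22, and 0.31 ± 1.01 without SNP 1 (limma adjusted p = 0.459 and 0.927). KO minus WT was 0.93 ± 1.22 and turned to -0.20 ± 0.67 without KO 1 and SNP 1 (adjusted p = 1 and 0.987).

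Vpreb1 was measured by 4 probe sets that fell into pairs. Probe set 10438066 was at 6.78, 7.02 and 5.02 in WT, 2.66, 4.92 and 6.72 in KO, 6.04, 8.14 and 7.73 in wtKI and 10.96, 5.80 and 6.17 in SNP. Probe set 10438065 followed it, with 10.15 on SNP 1 and 7.37 as the highest value elsewhere, on wtKI 2. The other pair, 10438067 and 10438068, ranged only from 6.26 to 7.80 over the 12 arrays, and neither was highest on SNP 1. The gene value therefore mixed a responding and a flat pair. It was at 6.30 ± 0.57 in WT, 6.23 ± 0.32 in KO, 6.84 ± 0.40 in wtKI and 7.21 ± 1.54 in SNP (SD, n = 3), with SNP 1 at 8.96. SNP minus wtKI was 0.38 ± 0.61 and turned to -0.50 ± 0.36 without SNP 1 (adjusted p = 0.816 and 0.962). Over the 11 arrays without SNP 1 the correlation of Dntt with probe sets 10438066 and 10438065 was 0.63 and 0.65, and with the flat pair -0.16 and -0.28. With the Cd79b probe sets it ran from -0.77 (10392148) to -0.07 (10392143), so the values of largest size were negative. Probe sets 10438065 and 10438066 were under the 5th percentile on 4 and 3 of the 12 arrays, and 10392148 on 3. Their correlations therefore rest in part on values at background. All of these correlations are descriptions over arrays that share genotypes.

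**Figure D2:**
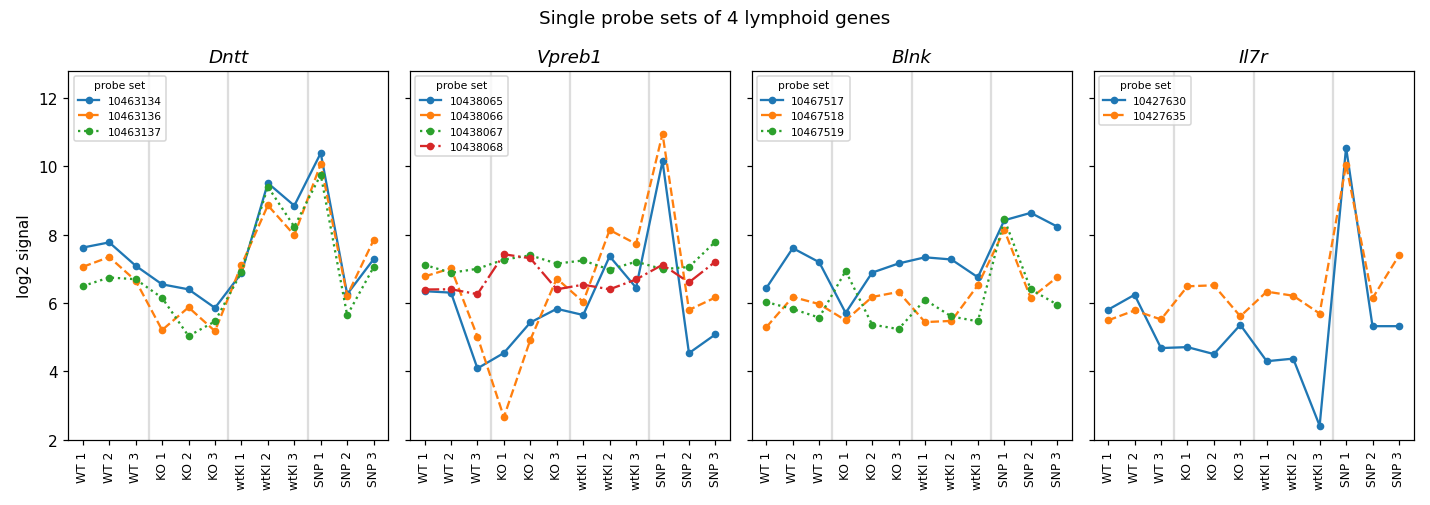
Log2 signal (y axis) of every probe set of Dntt, Vpreb1, Blnk and Il7r on the 12 arrays (x axis); a line joins the values of 1 probe set and stands for no order of the arrays. The 3 Dntt probe sets run together, 2 of the 4 Vpreb1 probe sets stay between 6.26 and 7.80, and Blnk probe set 10467517 is at 8.24 or above on all 3 SNP arrays.

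Cd79b and Blnk carry the signal of the pre-B-cell receptor. Cd79b, a signalling chain of that receptor, was above the 5th percentile on all arrays, at 7.08, 7.55 and 8.01 in WT, 6.71, 7.32 and 7.65 in KO, 7.60, 6.87 and 6.59 in wtKI and 8.95, 7.42 and 7.15 in SNP. All 7 of its probe sets were highest on SNP 1, and the genotypes overlapped throughout. Without SNP 1 its differences lay between -0.53 ± 0.33 (wtKI minus WT, adjusted p = 0.998) and 0.27 ± 0.37 (SNP minus wtKI, adjusted p = 0.976).

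Blnk, the adaptor that links the receptor to downstream kinase targets, was the member that was high in the whole SNP group. It was at 8.14, 6.67 and 6.76 in SNP, against 5.37, 6.18 and 5.97 in WT, 5.49, 5.82 and 6.08 in KO and 6.27, 5.88 and 5.74 in wtKI. All 3 SNP arrays lay above all 9 other arrays, which held for 1.82% of all genes. SNP 2 and SNP 3 alone lay above those 9, which held for 3.34%; both rules were chosen after the values were seen. SNP was 1.35 ± 0.37 above WT, 1.23 ± 0.37 above wtKI and 1.39 ± 0.37 above KO (limma adjusted p = 0.249, 0.551 and 0.269). Without SNP 1 these were 0.88 ± 0.27, 0.75 ± 0.27 and 0.92 ± 0.27 (adjusted p = 0.405, 0.887 and 0.369). No alternative that kept Blnk brought one of the 3 past the threshold, and the smallest limma adjusted p values were 0.0914, 0.212 and 0.0548. The filter on dim genes left Blnk out. These comparisons share the SNP arrays and are not independent of each other.

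The Blnk probe sets did not move alike. Probe set 10467517 was at 8.43, 8.64 and 8.24 in SNP and at most 7.61 on the other 9 arrays, with SNP 1 no higher than SNP 2. Probe sets 10467518 and 10467519 were highest on SNP 1, at 8.14 and 8.46, and their means over SNP 2 and SNP 3 were 6.45 and 6.18, against WT means of 5.82 and 5.81. Thus 1 probe set separated SNP from the rest without SNP 1, and the other pair mostly followed SNP 1. Its neighbour Dntt did not share this pattern.

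Il7r, the receptor chain for interleukin 7, was at 10.30 on SNP 1 and between 4.05 and 6.36 on the other 11 arrays. Its values were 5.65, 6.01 and 5.10 in WT, 5.60, 5.51 and 5.49 in KO, 5.32, 5.30 and 4.05 in wtKI and 5.73 and 6.36 on SNP 2 and SNP 3. SNP was 2.58 ± 0.92 above wtKI (limma adjusted p = 0.551), and 1.16 ± 0.39 without SNP 1 (adjusted p = 0.887), with no overlap in either case. All 3 wtKI values of the gene lay under the 5th percentile, so these sizes are not exact. On probe set 10427635 alone the SNP mean was 7.86, or 6.77 without SNP 1, against 6.08 in wtKI, and SNP 2, at 6.14, lay within the wtKI range. The low wtKI level of the gene came from probe set 10427630 (2.41 to 4.37 in wtKI, all under the 5th percentile), while probe set 10427635 was at 5.69 to 6.34 there. With that brighter probe set alone, wtKI minus WT turned from -0.70 to 0.48.

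Over the whole comparison of genotypes, limma passed 0 of the 8 genes in each of the 6 comparisons, with and without SNP 1. Among all genes it passed 0% in 5 comparisons, and 0.0141% (Csf2rb and Zdhhc2, both lower) in SNP minus KO, where the replicate block passed 0 genes. Without SNP 1 it passed 0.0352% in KO minus WT (Dab2, Mmp8, Ndrg2 and Tulp4 higher, Pde6c lower) and the same 2 genes in SNP minus KO. At an unadjusted p under 0.05, 3 of the 8 were higher in SNP minus WT (Ebf1, Blnk and Rag1; 7.07% of all genes) and 3 in SNP minus wtKI (Blnk, Il7r and Rag1; 4.16%). 2 were higher in SNP minus KO (Blnk and Dntt; 5.4%) and 1 was lower in KO minus wtKI (Dntt; 2.39%). In KO minus WT there were 0 of 8 (2.61% of all genes higher and 2.11% lower, together 4.72%), and in wtKI minus WT 0 of 8 (1.87% and 1.19%, together 3.06%). In the direction without members, the shares of all genes were 8.84% lower in SNP minus WT, 4.69% lower in SNP minus wtKI, 7.19% lower in SNP minus KO and 2.13% higher in KO minus wtKI, and both directions together held 15.9%, 8.85%, 12.6% and 4.51%. Without SNP 1 Blnk remained higher in all 3 SNP comparisons (5.26%, 2.68% and 4.37% of all genes), Il7r remained higher and Dntt was lower in SNP minus wtKI (2.73% lower), and Dntt was higher in wtKI minus WT (2.58%) and lower in KO minus wtKI (3.63%). Rag1 and Ebf1 no longer reached it in any comparison. Without KO 1 as well, Ebf1 reached it in SNP minus WT, at 2.29 ± 0.71 (limma unadjusted p = 0.0097, adjusted p = 0.222), as did 7.54% of all genes in that direction. The Ebf1 values of both groups were then under the 5th percentile, so this size is not exact.

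The size of the SNP differences changed when SNP 1 was left out, while most kept their direction. All 8 genes were higher in SNP than in WT and than in KO, and 7 of 8 than in wtKI, with medians of 1.54, 1.62 and 1.36 beside -0.01, 0.01 and -0.02 over all genes, of which 49.3%, 51.3% and 47.5% were higher. Without SNP 1 the counts were 6, 7 and 6 of 8 and the medians 0.38, 0.39 and 0.48, beside -0.0016, 0.03 and -0.0035. In KO minus WT 3 of 8 were higher (46.9% of all genes; median -0.05, all genes -0.02), in wtKI minus WT 5 of 8 (48.8%; 0.18, all genes -0.01) and in KO minus wtKI 5 of 8 (47.3%; 0.17, all genes -0.02). Groups were apart, with SNP higher, for 2 of 8 genes against WT (12.9% of all genes), 3 of 8 against wtKI (7.23%) and 2 of 8 against KO (6.7%), and without SNP 1 for 2, 3 and 2 of 8 (18.2%, 11.2% and 11.5%). With SNP lower there were 0 of 8 in each (12.9%, 7.4% and 7.25% of all genes). In KO minus WT 0 of 8 were apart and higher (5.68%) and Dntt was apart and lower (6.09%), and in wtKI minus WT there were 0 of 8 in either direction (5.78% higher, 6.83% lower). In KO minus wtKI Il7r was apart and higher (5.34%) and Dntt apart and lower (5.55%).

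**Figure D3:**
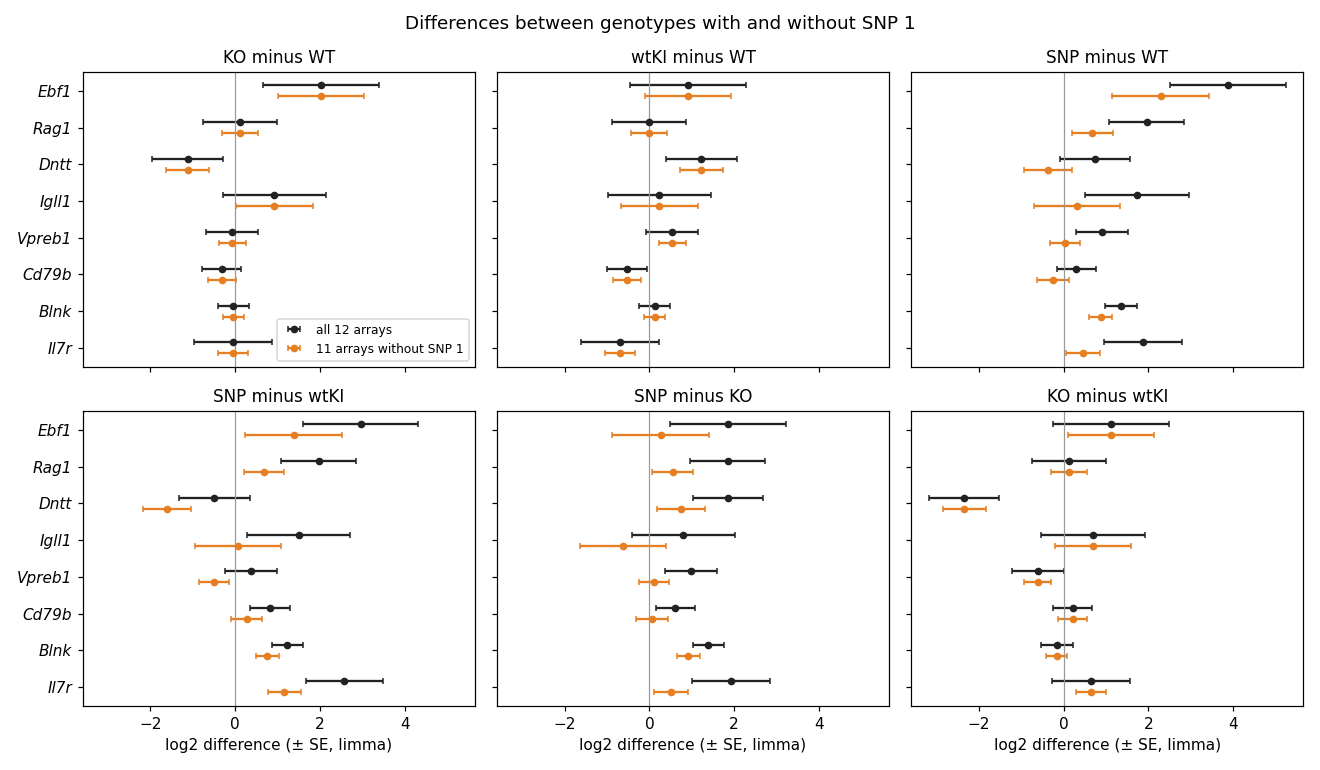
Log2 difference with its limma SE (x axis) for the 8 genes (y axis) in the 6 comparisons, over all 12 arrays (black) and over the 11 without SNP 1 (orange). Leaving out SNP 1 brings most SNP differences towards 0 and narrows the errors; Blnk stays at 0.75 to 0.92 above the other genotypes and Dntt at -2.35 in KO minus wtKI.

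On SNP 1 the 8 genes were higher than the mean of SNP 2 and SNP 3 by 1.43 to 4.74, with a median of 3.60, where the median over all genes was -0.06 and 2.53% of genes exceeded 2. The difference was 4.74 for Ebf1, 4.26 for Il7r, 4.25 for Igll1, 3.87 for Rag1, 3.34 for Dntt, 2.62 for Vpreb1, 1.66 for Cd79b and 1.43 for Blnk. For all 8 SNP 1 was the highest of the 12 arrays, as it was for 20% of all genes. At the level of probe sets it was highest for 19 of 22, among them all 7 of Cd79b. The share over all probe sets was not computed, and probe sets of a gene are not independent. These are values of 1 array, and no test was made of them.

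Markers of other cells moved on the same array. All 10 measured mature B and plasma cell genes were higher on SNP 1 than on SNP 2 and SNP 3, with a median of 2.17, and 0 of them fell under the 5th percentile there. Bank1, a B-cell scaffold, was at 9.36 on SNP 1 and between 4.56 and 5.92 elsewhere, and Ms4a1, the CD20 antigen, at 8.25 and between 4.97 and 6.26 elsewhere. Pax5, which maintains B-cell identity, was at 8.22 on SNP 1 and between 4.92 and 5.82 elsewhere. It is 1 of 16 measured lymphoid transcription factor genes, of which 11 were higher on SNP 1 than on SNP 2 and SNP 3 (median 0.53). Among the others, Myb, Runx1 and Sox4 differed by -1.33, -1.14 and -1.05. The late neutrophil genes were higher in 16 of 16 (median 3.73), the erythroid genes in 11 of 11 (median 3.82) and the macrophage genes in 5 of 6 (median 0.75). GMP genes were lower in 8 of 11 (median -1.33), with Kit and Cd34 lower by 2.26 and 2.02. Among T and NK cell genes 8 of 9 were higher, with a median of 0.38, and Cd3e, part of the T-cell receptor complex, was at 7.12 on SNP 1 and 6.37 to 6.94 elsewhere. Klrb1c and Cd2, found on NK and T cells, were higher by 4.52 and 2.79, with both under the 5th percentile on SNP 2 and SNP 3, though Klrb1c was also at 7.09 on WT 3 and 7.24 on wtKI 1. Of the plasmacytoid dendritic cell genes 6 of 8 were higher (median 0.16); Siglech was at 8.72 on SNP 1, 7.25 on SNP 2 and 3.73 to 6.07 elsewhere. The mean of the 10 mature B and plasma cell genes ranged from 6.22 to 8.37 in SNP, 5.93 to 6.96 in KO, 6.17 to 6.44 in WT and 6.20 to 6.78 in wtKI. On SNP 2, SNP 3 and the 9 arrays of the other groups 0 to 4 of the 10 lay under the 5th percentile. The part of these cells in the lymphoid values of SNP 1 was not tested.

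KO 1 showed another combination. Ebf1 and Igll1 were higher there than the mean of KO 2 and KO 3, by 3.94 and 3.38, while Blnk, Cd79b and Vpreb1 were lower by 0.46, 0.77 and 0.55 and Dntt, Rag1 and Il7r differed by 0.61, 0.71 and 0.10. On KO 1 late neutrophil genes were higher in 11 of 16 (median 1.07), erythroid genes in 10 of 11 (median 1.04) and mature B and plasma cell genes in 10 of 10 (median 0.58), and GMP genes in 1 of 11 (median -0.41). Over all genes the median of KO 1 against KO 2 and KO 3 was 0.0077, and 0.986% of genes exceeded 2. The late neutrophil mean was 7.13 on KO 1, below 7.38 on WT 3 and 7.14 on SNP 3, so it was high only against KO 2 and KO 3. The part of such cells in the values of Ebf1 and Igll1 was not tested. Jchain, the joining chain made by plasma cells, was at 9.81 on KO 1, 9.18 on wtKI 3 and 6.36 on SNP 1, with 5.03 to 6.998 over the other 9 arrays. Ighm, the heavy chain of IgM, was at 9.71 on KO 1, 10.07 on wtKI 3 and 10.01 on SNP 1 and at most 8.91 elsewhere. On wtKI 3 the lymphoid genes were mixed. Dntt was at 8.56 and Vpreb1 at 6.90, each behind SNP 1 and wtKI 2 only, while Ebf1 (3.40), Rag1 (3.82), Igll1 (4.13) and Il7r (4.05) were under the 5th percentile.

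**Figure D4:**
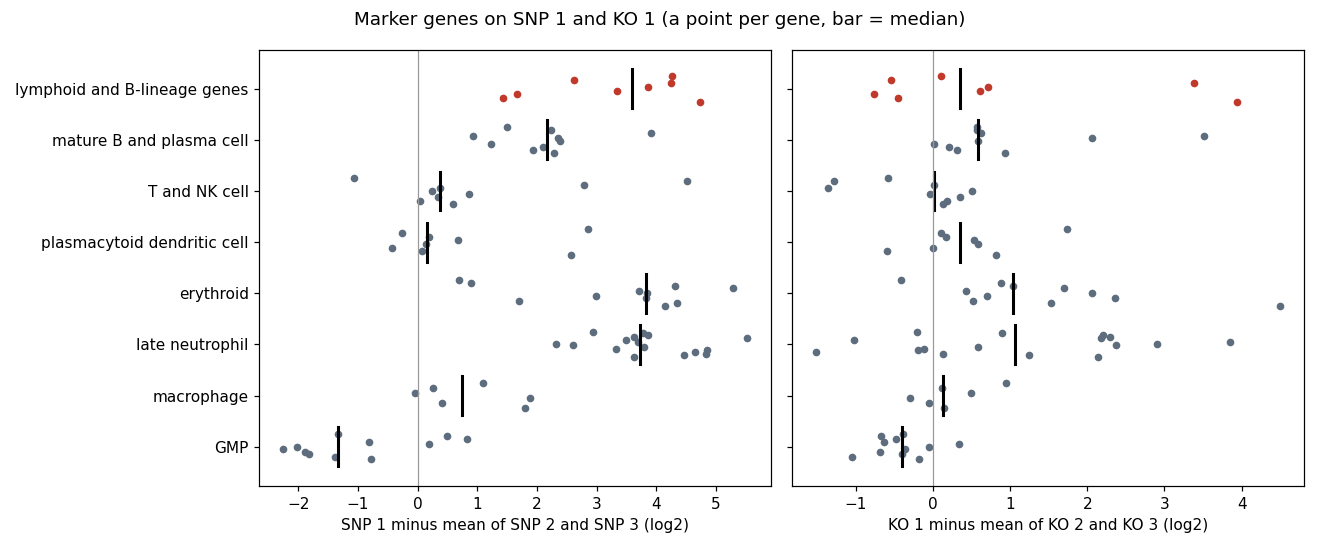
Log2 difference of SNP 1 from the mean of SNP 2 and SNP 3 (left) and of KO 1 from the mean of KO 2 and KO 3 (right), a point per gene and a bar at the median of each list (y axis). The lymphoid genes have a median of 3.60 on SNP 1, between those of the mature B (2.17) and late neutrophil (3.73) genes; on KO 1 only Ebf1 and Igll1 of the 8 are above 1.

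Other genes of the same pathways were taken as lists: 9 measured genes of pre-B-cell receptor and B-cell signalling, 16 lymphoid transcription factors, 9 interleukin 7 signalling genes, 11 of V(D)J recombination and end joining and 10 of early lymphoid priming. In each of the 6 comparisons 0 genes of any list passed in either direction, with and without SNP 1. The transcription factors were higher in 9 of 16 in SNP minus WT (median 0.17, all genes -0.01), with Pax5 at 1.20 ± 0.56 and Lef1 at 0.96 ± 0.53 (limma adjusted p = 0.318 and 0.361; Pax5 was under the 5th percentile on all WT arrays), and without SNP 1 in 8 of 16 (median -0.0020). Pre-B-cell receptor genes were higher in 6 of 9, with Cd72, a B-cell surface receptor, at 1.50 ± 0.81 (adjusted p = 0.36), and without SNP 1 in 4 of 9 (median -0.10). These differences of Pax5, Lef1 and Cd72 include SNP 1, where the genes were at 8.22, 8.39 and 9.34. They were at 5.46, 5.74 and 6.285 on SNP 2 and at 5.82, 6.22 and 6.50 on SNP 3. Recombination genes were lower in 8 of 11 with and without SNP 1 (medians -0.21 and -0.24). Early lymphoid priming genes were higher in 7 of 10 in both (medians 0.25 and 0.04). Ltb, a lymphotoxin chain, was at 9.01 on SNP 1 and 5.37 to 6.07 elsewhere. Against the mean of SNP 2 and SNP 3, 7 of the 10 were higher on SNP 1 (median 0.26), while Cd27 and Flt3 were at -1.69 and -1.10.

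The smallest adjusted p over these lists was in the interleukin 7 signalling genes, in KO minus WT. Pim1, a kinase gene switched on by cytokine receptors, was at 7.67, 7.45 and 7.41 in KO and at 6.55, 6.30 and 6.22 in WT, without overlap, a difference of 1.16 ± 0.23 (limma adjusted p = 0.254) and 1.16 ± 0.17 without SNP 1 (adjusted p = 0.0738). Il2rg, the chain that Il7r shares with other receptors, was at 9.13, 8.46 and 8.86 in KO and 7.07, 7.10 and 8.11 in WT, a difference of 1.39 ± 0.49 (adjusted p = 0.891), also without overlap. Il7r itself was -0.05 ± 0.92 from WT (adjusted p = 1). As a list 5 of 9 were higher (median 0.05, all genes -0.02). In wtKI minus WT 13 of 16 transcription factors were higher with a median of 0.14 (all genes -0.01), and Lig4, the ligase of end joining, was 1.54 ± 0.41 lower (adjusted p = 1), with all 3 wtKI arrays under the 5th percentile, so the size is not exact.

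The median correlation among the 8 genes was high with SNP 1 and near 0 without it. Over all 12 arrays the 28 pairwise correlations had a median of 0.67 and 20 were above 0.5, and without SNP 1 the median was -0.0035 and 3 were above 0.5. Those 3 were Dntt with Vpreb1 (0.69), Rag1 with Il7r (0.59) and Ebf1 with Igll1 (0.52). The lowest were Ebf1 with Vpreb1 (-0.59) and Cd79b with Vpreb1 and with Dntt (-0.48 each), so single pairs were not near 0. Without KO 1 and SNP 1, 6 pairs were above 0.5 and the lowest was Cd79b with Vpreb1 (-0.80). There the correlation of Ebf1 with Igll1 was -0.12. The genes most like the mean of the 8 over 12 arrays were Ypel4, Epb42 (an erythrocyte membrane protein), Rasgrp4, Adam8 and Bach2, with Pearson r from 0.97 to 0.98. Ypel4 was at 10.89 on SNP 1 and 4.90 to 6.09 on the other arrays. Over the 11 arrays without SNP 1 they were Txndc2, Snord82, Tcf3, Gnao1 and Tlcd4, with r from 0.87 to 0.88. Tcf3 encodes the E2A proteins; it was at 7.39 on KO 1, 7.53 on wtKI 2 and 6.21 on KO 3, and its r was 0.86 over the 10 arrays without KO 1 and SNP 1. The top 5 were picked from all genes, so a high r is the outcome of the ranking.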

How the data were processed

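Per the labels' protocols, GMP RNA was kit-purified, amplified, biotin-labelled and hybridised. The deposited log2 signals came from RMA by the authors, as the submitters' processing notes name it. Its version, its settings and the annotation's build: not given in the sources used here. The table holds 105661 exon-level probe sets, of which the platform annotation names 1 gene for 98975, several for 1703 and no gene for 4983. Symbols were updated for 1756 genes through a RefSeq table. Probe sets of a gene were summarised by median polish (14199 genes, 2872 on 1 probe set). For arrays, their number limits the precision.

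The 6 comparisons were fitted in limma 3.58.1 under R 4.3.3 (lmFit, eBayes), using the 12 arrays together, and p-values were adjusted by Benjamini-Hochberg across the 14199 genes (threshold 0.05); the fit was tested on simulated data. Errors of differences are SEs of that fit. The 9 genes and the lists were chosen with earlier results of these data known. The report names the 9 genes, up to 4 genes per list with the largest differences, marker genes and the 5 genes most alike; marker genes given for SNP 1, KO 1 and wtKI 3 were chosen after their values were seen. Alternatives were other summaries, centring, quantile normalization, a filter on dim genes, fits of the compared groups only, array weights, a replicate block and arrays left out. Deviations of same-numbered arrays from their group means correlated at 0.35, 0.21 and 0.14 for the 3 pairs of KO and SNP. Over all 18 pairs they ran from -0.19 to 0.35, and no other 2 genotypes had every pair above 0.1. Arrays with unlike numbers were not compared, and KO 1 and SNP 1 both stood apart. These values therefore do not show that the numbers pair arrays.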

Additional observations from a re-analysis of the deposited data

How the results depend on the processing

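Of 978 values of the 48 gene differences under the alternatives, 921 kept their direction and side of the threshold, 1 passed (Dntt, KO minus wtKI, -1.94 with array weights, adjusted p = 0.0337) and 56 turned sign, none of them past the threshold. The number of the lymphoid genes past it was 0 in every comparison except 1 in KO minus wtKI with array weights, and 0 with each array left out. The filter on dim genes kept only Dntt, Vpreb1 and Cd79b of them, so the others have no value under it. Counts over all genes stayed small except with array weights, which gave 493 in KO minus WT, 521 in SNP minus KO, 745 in KO minus wtKI and 4 each in wtKI minus WT and in SNP minus WT, with a weight of 6.83 for KO 2 and 0.165 for SNP 1. KO minus WT gave 3 with the plain mean, 1 with only the groups compared and 4 without KO 1 and SNP 1. SNP minus KO, with 2 in the fit reported, gave 13 with the plain mean, 0 with the brightest probe set, 1 without the dimmest 30% of genes, and 0 with only the groups compared, with the replicate block and without KO 1 and SNP 1. SNP minus WT gave 1 without the dimmest genes, and SNP minus wtKI and KO minus wtKI gave 1 each with only the groups compared. With each array left out the counts ran from 0 to 5 (KO minus WT), 0 to 1 (wtKI minus WT), 0 to 2 (SNP minus WT, SNP minus wtKI and KO minus wtKI) and 0 to 3 (SNP minus KO). The replicate block passed 0 lymphoid genes and changed no other call, and its arrays are known to share only a number. The cause of these shifts was not tested.

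Signs turned as follows. Without KO 1 and SNP 1: in KO minus WT Blnk 0.11, Rag1 -0.12, Igll1 -0.20 and Vpreb1 0.11; in SNP minus WT Cd79b -0.26 and Dntt -0.37; in SNP minus wtKI Vpreb1 -0.50; in SNP minus KO Cd79b -0.19 and Vpreb1 -0.0726; in KO minus wtKI Ebf1 -0.20, Rag1 -0.11 and Igll1 -0.43. With array weights: in KO minus WT Blnk 0.0186, Igll1 -0.16, Vpreb1 0.18 and Il7r 0.022; in wtKI minus WT Rag1 0.28 and Igll1 -0.0284; in SNP minus WT Cd79b -0.21; in SNP minus wtKI Vpreb1 -0.0463; in KO minus wtKI Rag1 -0.031 and Igll1 -0.13. With the brightest probe set: in KO minus WT Cd79b 0.16, Vpreb1 0.27 and Il7r 0.61; in wtKI minus WT Il7r 0.48; in KO minus wtKI Vpreb1 0.13; and for SNP 1 against SNP 2 and SNP 3 Blnk -0.0159 and Vpreb1 -0.43. With the plain mean Blnk was -0.0146 in wtKI minus WT, and with quantile normalization Blnk was 0.0228 in KO minus WT. With each array left out, ranges that cross 0 were, in KO minus WT, -0.28 to 0.13 (Blnk), -0.20 to 1.55 (Igll1), -0.30 to 0.16 (Il7r), -0.36 to 0.46 (Rag1) and -0.40 to 0.11 (Vpreb1); in wtKI minus WT, -0.12 to 0.29 (Blnk), -0.54 to 0.67 (Igll1) and -0.49 to 0.33 (Rag1); in KO minus wtKI, -0.0058 to 0.50 (Cd79b), -0.20 to 1.98 (Ebf1), -0.43 to 1.46 (Igll1) and -0.15 to 0.39 (Rag1); in SNP minus WT, -0.26 to 0.64 (Cd79b) and -0.37 to 1.61 (Dntt); in SNP minus wtKI, -1.60 to 0.38 (Dntt) and -0.50 to 0.95 (Vpreb1); and in SNP minus KO, -0.62 to 1.93 (Igll1). Ebf1 and Rag1 are under the 5th percentile on 10 arrays each, Igll1 on 8 and Il7r on 5, which limits the size of their differences.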
